A study of Mus musculus with 6 samples.

Results

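The genes described here code for the subunits of the mitochondrial respiratory chain and ATP synthase, together called the oxidative phosphorylation (OXPHOS) genes, in mouse embryonic stem (ES) cells with and without CTCFL. They were chosen by name: a row of the array had to carry exactly 1 gene symbol, and that symbol had to begin with Nduf, Sdha to Sdhd, Uqcr, Cox4i, Cox5 to Cox8 or Atp5, without the mark of a pseudogene. This gave 118 rows for 93 genes out of 19937 genes on the array, and the row with the highest mean signal stood for each gene. Where a symbol had several rows (18 genes), rows can lie in near-identical copies of the gene, so levels of such genes are uncertain. By complex they were 34 genes of complex I, 4 of complex II, 8 of complex III, 18 of complex IV, 17 of complex V and 12 assembly or supercomplex factors. Ndufa4 and its paralog Ndufa4l2 were counted with complex IV, where the Ndufa4 protein is now placed.

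The study placed a FLAG-tagged mouse CTCFL vector, or a control vector, in ES cells cloned from 46C, a male Sox1-GFP knock-in line of 129P2/OlaHsd background, and both groups therefore carry the Sox1 reporter. CTCFL, also called BORIS, is a germ cell paralog of the insulator protein CTCF. Cells of both groups grew in medium with 10% serum under constant puromycin selection at 1 µg/ml, and 200 ng of total RNA of 3 replicates per group was read on Affymetrix Mouse Gene 1.0 ST arrays, 1 array per replicate. The labels call the replicates biological, but do not say whether they are separate clones, cultures or repeats of 1 culture. Nor is it stated how many separately transfected clones a group holds. Every p-value thus rests on the spread among the 6 arrays alone, and a difference between clones cannot be told apart from one between vectors. Signals are given on the log2 scale, and a log2 fold change is the FLAG-CTCFL mean minus the control mean. A gene passed the test when limma's Benjamini-Hochberg adjusted p over all 19937 genes was under 0.05.

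Ctcfl itself read 7.70, 7.85 and 7.89 without the CTCFL vector and 11.33, 11.22 and 11.24 with it, a 10.9-fold difference that matches the labels (limma adjusted p = 6.15e-13). The ES cell markers were bright in both groups but not level: 5 of 8 fell, and the log2 of their summed signal was 15.61 to 15.62 in the control arrays and 15.25 to 15.37 in the FLAG-CTCFL arrays. For trophoblast markers that sum was 10.76 to 10.81 against 10.95 to 11.05 (3 of 7 rose, 6 above the background range), for neural markers 10.62 to 10.75 against 10.80 to 10.87 (2 of 5 rose, all 5 above it) and for muscle markers 10.57 to 10.59 against 10.70 to 10.73 (1 of 6 rose, all 6 above it). For male germ cell markers it was 12.65 to 12.69 against 12.40 to 12.54 (1 of 7 rose and 1 fell, 5 above it), while for fibroblast markers (12.93 to 13.03 against 12.90 to 13.07, 5 of 8 above it) and endoderm markers (10.37 to 10.43 against 10.40 to 10.46, 3 of 6 above it) the groups overlapped. The background range here ends at a log2 signal of 7.63, under which lay 95% of 1194 receptor genes of the olfactory and vomeronasal families, which ES cells are not known to use. In such bulk samples, fewer cells of a type and less RNA per cell cannot be told apart. The part of these shifts in the results below was not tested.

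Oxidative phosphorylation passes electrons from NADH through complex I and from succinate through complex II to ubiquinone, then through complex III and cytochrome c to complex IV, which reduces oxygen. Complexes I, III and IV pump protons across the inner mitochondrial membrane, and complex V, the ATP synthase, uses the gradient to make ATP. Most subunits are encoded in the nucleus, a core set in mitochondrial DNA. Mouse ES cells use both glycolysis and respiration.

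OXPHOS genes changed little in cells with CTCFL. Of the 93 genes, 22 rose, 9 fell and 62 did not pass limma's test. The called share, 31 of 93 genes or 33.3% (23.7% higher and 9.68% lower), lay near that of all genes, of which 30.9% passed (12.5% higher and 18.4% lower). Above the background range, where all 93 members lie, 41.5% of genes passed (16.4% higher and 25.1% lower). No member changed by 1.5-fold or more, as 3.56% of all genes did. A change of at least 1.2-fold was found in 2 rises (Uqcr11 and Cox7b2; 4.95% of all genes) and 5 falls (Ndufa4l2, Cox6b2, Cox7b, Cox7a1 and Ndufv3; 10.3% of all genes). All FLAG-CTCFL arrays lay above all control arrays for 23 members (18.3% of all genes) and below them for 15 (23% of all genes), while the groups were apart in either direction for 41.3% of all genes, and for the other 55 the groups overlapped. The median log2 fold change was 0.010 over the members and 0.0037 over all genes, and single values ran from -0.52 (Ndufa4l2) to 0.30 (Cox7b2). The plot of fold changes by complex shows rises of 0.13 to 0.30 spread over all 5 complexes, while the 4 steepest falls stand together in complex IV. Of these 4 falls, 3 are in tissue-restricted isoforms or paralogs.

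**Figure D1:**
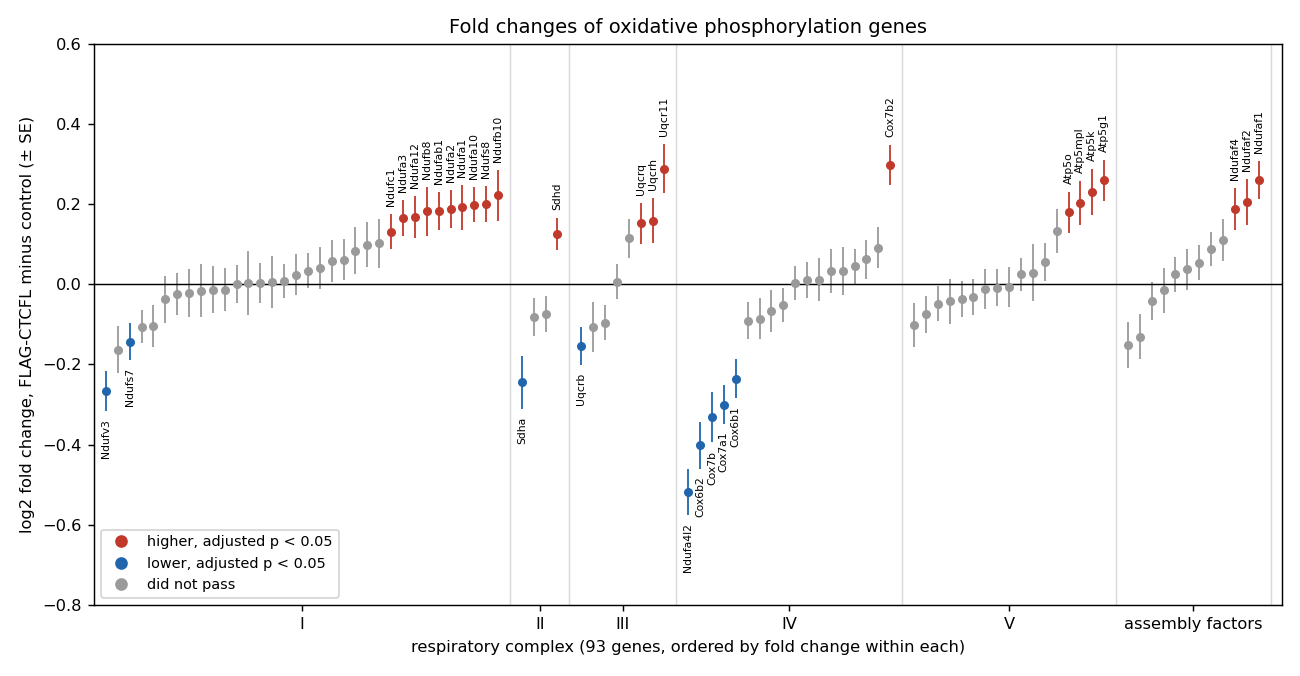
Log2 fold change (FLAG-CTCFL minus control, with the limma SE, 3 arrays per group) of each of the 93 genes, in columns by respiratory complex, with the 12 assembly factors at the right and genes past the adjusted p of 0.05 named and coloured by direction. The 22 rises lie between 0.13 and 0.30, and the 5 falls of complex IV between -0.24 and -0.52.

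The number of rises depended on the scaling and on single arrays. After subtraction of array medians 11 members were higher and 11 lower, against 22 and 9 with the deposited values, and after quantile normalization 28 were higher and 11 lower. Over all genes the counts moved as well, from 2496 higher and 3665 lower to 1785 and 3811 with medians subtracted and to 3451 and 3654 with quantile normalization. Without control replicate 2 the count of rises was 10, without control replicate 3 it was 9 and without FLAG-CTCFL replicate 3 it was 11, whereas without control replicate 1 it was 21. The rises over all genes in those 4 fits were 1905, 1950, 1931 and 2041. The falls numbered 7 to 9 whichever array was left out. Single arrays also differed in a simple count: control replicate 1 was the highest of the 3 control arrays for 77 of 93 OXPHOS genes (82.8%), and for 32.5% of all genes. Among the 22 genes that rose, it was the highest control array for 20. In the FLAG-CTCFL group replicate 1 was highest for 50 of 93 (53.8%), against 35.8% of all genes.

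Most OXPHOS genes are bright, and 70 of the 93 lay in the brightest 25% of all genes by mean signal. Of those bright genes 17.6% were higher and 31% were lower in FLAG-CTCFL arrays, and of the 70 OXPHOS genes 17 were higher and 7 lower (24.3% and 10%). Among the same bright genes control replicate 1 was the highest control array for 36.5% and FLAG-CTCFL replicate 1 the highest of its group for 74.3%. The part of these array differences in the calls was not tested beyond leaving arrays out. The median OXPHOS signal itself was 10.89, 10.80 and 10.84 across the control arrays against 10.88, 10.85 and 10.83 with CTCFL, and the groups overlap.

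**Figure D2:**
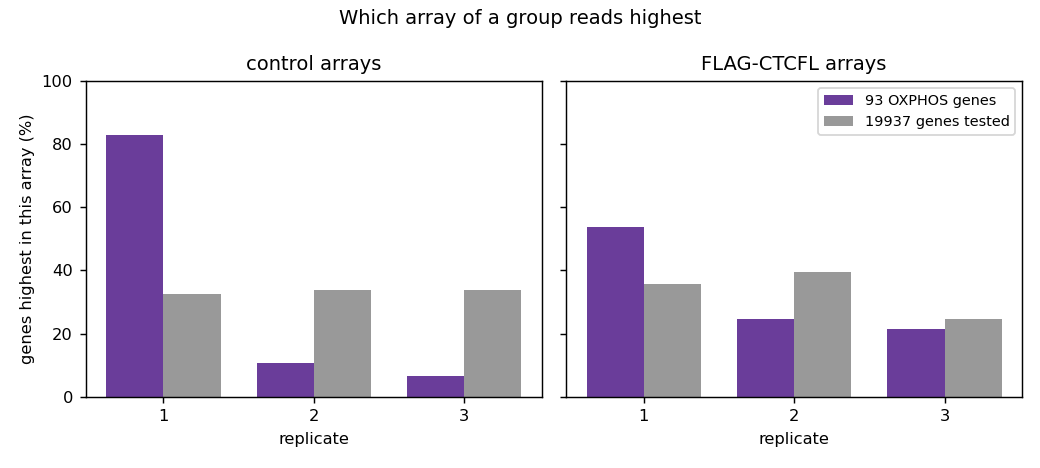
Percentage of genes whose signal is highest in replicate 1, 2 or 3 of a group, for the 93 OXPHOS genes and for all 19937 genes, with control arrays at the left and FLAG-CTCFL arrays at the right. Control replicate 1 holds the highest control value for 82.8% of OXPHOS genes and 32.5% of all genes.

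**Figure D3:**
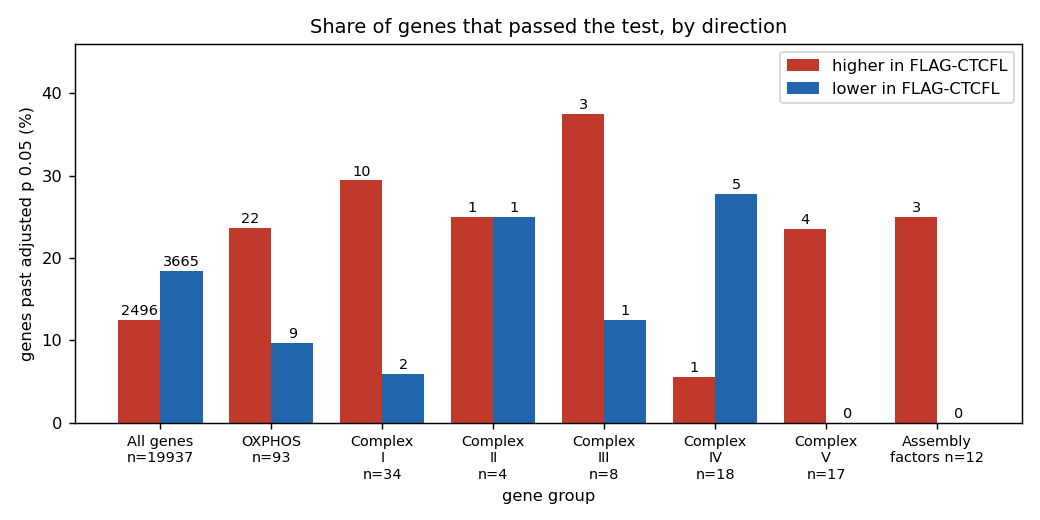
Percentage of genes that passed limma's adjusted p of 0.05, higher (red) and lower (blue) in FLAG-CTCFL arrays, for all genes, for all OXPHOS genes and for each complex, with the number of genes over each bar. Complex IV has 1 gene higher and 5 lower, complex V 4 higher and 0 lower, and the small groups rest on few genes.

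The promoters of these genes share letters that the choice by name did not use. NRF1, a transcription factor that binds the promoters of many respiratory genes, recognises a GC-rich near-palindrome. The pattern GCGCNTGCG, read on both strands, stood in 28 of 82 promoter windows of the OXPHOS genes (34.1%), in 6.31% of all 32851 windows and in 9.33% of the windows of genes with 1 symbol on the array. A window runs from 250 bases before to 50 bases after a RefSeq gene start (GRCm38.p6); 77 of the 93 genes matched the table, 5 of them with 2 windows, and median GC content was 58.5% for OXPHOS windows and 52.7% for all. Of the windows of genes that rose 7 of 19 held it, of genes that fell 1 of 7, and of genes that did not pass 20 of 56. The YY1 pattern AANATGGCG stood in 11 of 82 windows (13.4%, against 2.38% of all and 3.28% for genes on the array) and the ETS pattern CCGGAAGT, a site of GABPA, in 5 (6.1%, against 3.89% of all and 5.43% for genes on the array), both read on both strands. Matches of different patterns may overlap, and a match is a run of letters, not a measured binding site.

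The promoters of 6 genes are printed here as examples. Sdha and Sdhd are subunits of the same complex that moved in opposite directions, and the testis isoforms Cox6b2 and Cox7b2 also moved apart. Atp5k and Ndufaf4 rose and hold the NRF1 pattern. The larger rises Atp5g1 and Ndufaf1 (0.26 each), not printed, held 0 matches to it in their windows. Each is the 250 bases before the gene start, 5′ to 3′ on the gene's strand, from RefSeq on GRCm38.p6. Sdha lies at chr13:74350241-74350490 (minus strand), Sdhd at chr9:50603850-50604099 (minus), Atp5k at chr5:108434400-108434649 (minus), Ndufaf4 at chr4:24897833-24898082 (plus), Cox6b2 at chr7:4753095-4753344 (minus) and Cox7b2 at chr5:71548206-71548455 (minus). Capitals mark matches to the NRF1 pattern.
Sdha: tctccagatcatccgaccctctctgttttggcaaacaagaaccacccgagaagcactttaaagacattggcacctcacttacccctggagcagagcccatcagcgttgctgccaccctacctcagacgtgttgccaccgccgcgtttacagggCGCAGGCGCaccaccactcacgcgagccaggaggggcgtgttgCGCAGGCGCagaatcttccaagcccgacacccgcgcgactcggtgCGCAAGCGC
Sdhd: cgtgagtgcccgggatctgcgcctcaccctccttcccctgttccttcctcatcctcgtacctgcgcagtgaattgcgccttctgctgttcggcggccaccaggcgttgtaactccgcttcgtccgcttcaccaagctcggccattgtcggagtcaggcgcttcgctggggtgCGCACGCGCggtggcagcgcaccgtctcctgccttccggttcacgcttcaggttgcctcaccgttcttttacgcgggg
Atp5k: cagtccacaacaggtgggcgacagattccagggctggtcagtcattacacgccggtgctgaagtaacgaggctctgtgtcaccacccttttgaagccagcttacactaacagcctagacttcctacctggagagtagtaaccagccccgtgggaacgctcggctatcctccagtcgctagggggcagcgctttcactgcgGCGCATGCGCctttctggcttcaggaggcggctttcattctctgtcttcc
Ndufaf4: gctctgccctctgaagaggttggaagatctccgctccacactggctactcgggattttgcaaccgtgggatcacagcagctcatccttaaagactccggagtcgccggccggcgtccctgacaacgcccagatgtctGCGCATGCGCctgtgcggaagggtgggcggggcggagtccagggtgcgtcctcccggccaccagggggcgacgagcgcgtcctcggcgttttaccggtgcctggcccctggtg
Cox6b2: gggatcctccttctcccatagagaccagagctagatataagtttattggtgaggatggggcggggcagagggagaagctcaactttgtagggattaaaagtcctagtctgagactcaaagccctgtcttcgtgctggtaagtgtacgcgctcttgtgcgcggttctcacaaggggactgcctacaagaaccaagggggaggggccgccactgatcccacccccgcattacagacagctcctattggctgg
Cox7b2: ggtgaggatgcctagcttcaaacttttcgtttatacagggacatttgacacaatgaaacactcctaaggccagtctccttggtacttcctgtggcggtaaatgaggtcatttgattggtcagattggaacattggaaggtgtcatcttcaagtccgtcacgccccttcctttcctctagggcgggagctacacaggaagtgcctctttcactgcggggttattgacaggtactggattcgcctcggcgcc
Sdha, which fell, holds 3 matches to the NRF1 pattern, beginning 97, 54 and 9 bases before the start, and Sdhd, which rose, holds 1, at 78 bases. In Atp5k and Ndufaf4 the pattern matches on both strands at nearly the same place, beginning 50 and 113 bases before the start. Cox6b2 and Cox7b2 do not hold these letters in the stretch shown.

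Of the 34 genes of complex I, the NADH dehydrogenase, 10 were higher (29.4%), 2 lower (5.88%) and 22 did not pass, with a median log2 fold change of 0.029. Over all genes 12.5% were higher and 18.4% lower. With array medians subtracted complex I had 3 rises and 4 falls, so the balance of rises and falls turned with the scaling. The 4 rises with the smallest p were in Ndufa10, Ndufs8, Ndufa2 and Ndufab1. Ndufa10, an accessory subunit of the membrane arm, read 11.50, 11.52 and 11.53 in the control arrays and 11.77, 11.68 and 11.70 with CTCFL, a rise of 0.20 ± 0.04 on the log2 scale (SE, n = 3 arrays per group; limma adjusted p = 0.00280; 1.15-fold). Ndufs8, a core subunit that holds iron-sulfur clusters, read 11.18, 11.12 and 11.07 against 11.35, 11.31 and 11.32 (0.20 ± 0.04, adjusted p = 0.00347). In both genes every FLAG-CTCFL array lay above every control array. Ndufa2 read 9.61, 9.49 and 9.51 against 9.70, 9.70 and 9.77 (0.19 ± 0.05, adjusted p = 0.00768). Ndufab1, the mitochondrial acyl carrier protein, which also serves fatty acid synthesis in the organelle, read 10.40, 10.39 and 10.33 against 10.63, 10.50 and 10.54 (0.18 ± 0.05, adjusted p = 0.00865). These groups did not overlap either, and a dimmer row for Ndufab1 rose by 0.21. The Ndufab1 call was lost without control replicate 3 (adjusted p = 0.05003) and after subtraction of array medians (0.0541). The other rises of the complex were Ndufb10 (0.22), Ndufa1 (0.19), Ndufb8 (0.18), Ndufa12 (0.17), Ndufa3 (0.17) and Ndufc1 (0.13), all accessory subunits. All 6 of these calls were lost without control replicate 3 (adjusted p = 0.0586 to 0.192), and all but Ndufa3 without control replicate 2 (0.0785 to 0.172) or FLAG-CTCFL replicate 3 (0.0824 to 0.105). Ndufb8 (0.0638) and Ndufa12 (0.0894) were also lost without FLAG-CTCFL replicate 1, and Ndufc1 (0.0506) without FLAG-CTCFL replicate 2. The count of rises in complex I was thus 5, 3 and 5 without control replicate 2, control replicate 3 and FLAG-CTCFL replicate 3. Of the 10 rises Ndufa10 and Ndufs8 passed under each of the 15 alternatives that kept the threshold of the adjusted p at 0.05 and set no minimum fold.

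Both falls of complex I were in subunits of its peripheral arm, which carries electrons from NADH to ubiquinone. Ndufv3, a small accessory subunit beside the NADH-binding site, read 9.83, 9.80 and 9.71 in the control arrays and 9.44, 9.56 and 9.54 with CTCFL. It fell by 0.27 ± 0.05 on the log2 scale (SE, n = 3 arrays per group; limma adjusted p = 0.000887; 1.2-fold), without overlap of the groups. Ndufs7, a core subunit near the ubiquinone site, read 12.47, 12.49 and 12.52 against 12.41, 12.29 and 12.35 and fell by 0.14 ± 0.05 (adjusted p = 0.0294). The Ndufs7 call was lost without control replicate 1 (adjusted p = 0.0530), 2 (0.0886) or 3 (0.114) and without FLAG-CTCFL replicate 2 (0.0739) or 3 (0.0804). The 22 other genes of the complex lay between -0.16 and 0.10. They include the largest core subunit encoded in the nucleus, Ndufs1, with 10.53, 10.66 and 10.56 against 10.68, 10.47 and 10.55 and a 95% interval of the log2 difference from -0.14 to 0.11.

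**Figure D4:**
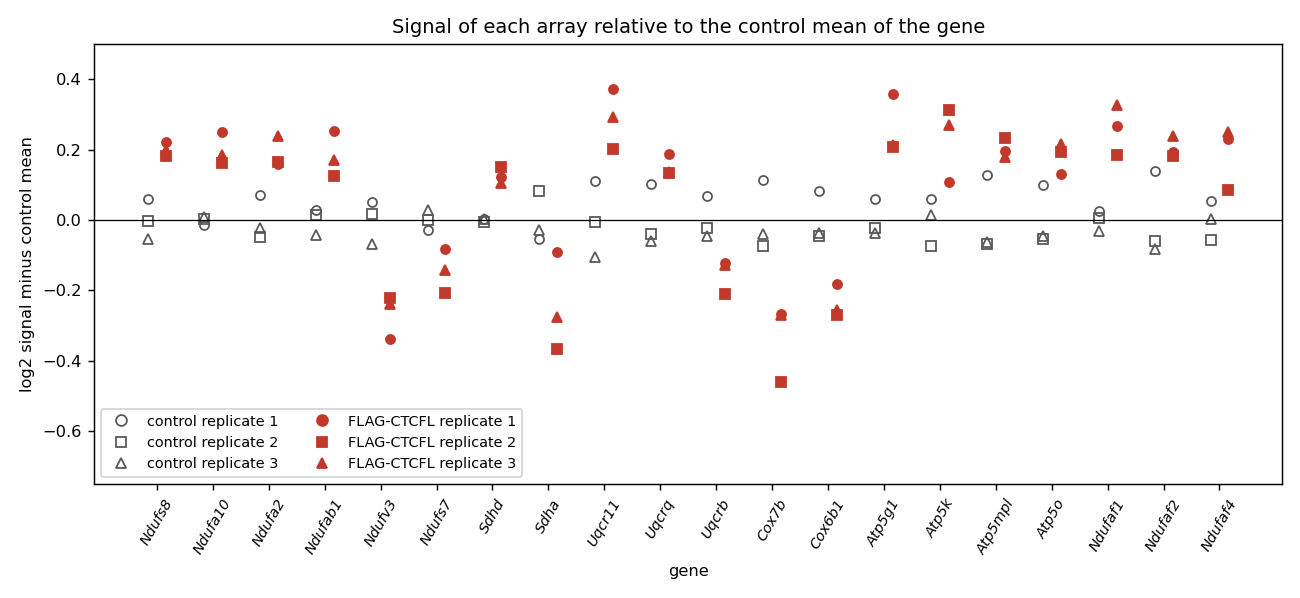
Log2 signal of each of the 6 arrays minus the gene's control mean, for 20 OXPHOS genes that passed limma's test, ordered by complex, with control arrays as open and FLAG-CTCFL arrays as filled symbols and the replicate number as the shape. Only genes whose groups do not overlap were drawn, so filled and open symbols are apart in each gene by choice. In Sdha FLAG-CTCFL replicate 1 lies closest to the control arrays.

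The 4 subunits of complex II, succinate dehydrogenase, did not move together. Sdha, the flavoprotein that oxidises succinate, fell from 11.45, 11.59 and 11.48 in the control arrays to 11.42, 11.14 and 11.23, by 0.24 ± 0.07 on the log2 scale (SE, n = 3 arrays per group; limma adjusted p = 0.0110; 1.18-fold). Its highest FLAG-CTCFL array lay just under its lowest control array. Sdhd, a membrane anchor, rose from 10.38, 10.37 and 10.38 to 10.50, 10.52 and 10.48 (0.13 ± 0.04, adjusted p = 0.0323). Sdhb, the iron-sulfur subunit (-0.074), and Sdhc, the other anchor (-0.081), did not pass. The Sdha call was lost without control replicate 2 (adjusted p = 0.0650) or FLAG-CTCFL replicate 3 (0.0502), and the Sdhd call without control replicate 1 (0.0855), 2 (0.104) or 3 (0.0903), without FLAG-CTCFL replicate 2 (0.0575) or 3 (0.0619) and after subtraction of array medians (0.0958). Among the 20 nearest tested genes of Sdha on chromosome 13, 8 were lower, with a median of -0.12.

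In complex III, the cytochrome c reductase, 3 of 8 genes rose (37.5%), 1 fell (12.5%) and 4 did not pass. The 4 calls were in small subunits without a redox centre, as are most of the 8. Cytochrome c1 (Cyc1), outside the name rule, did not pass (0.077). The 3 rises and 1 fall became 1 and 1 after subtraction of array medians, and 0 and 0 when each gene had its own variance only. Uqcr11, the smallest subunit, read 10.24, 10.13 and 10.03 in the control arrays and 10.51, 10.33 and 10.42 with CTCFL, a rise of 0.29 ± 0.06 on the log2 scale (SE, n = 3 arrays per group; limma adjusted p = 0.00226; 1.22-fold). A dimmer row for Uqcr11 gave 0.24. Uqcrq read 11.03, 10.88 and 10.86 against 11.11, 11.06 and 11.06 (0.15 ± 0.05, adjusted p = 0.0352), and the groups did not overlap. Uqcrh, the hinge protein that contacts cytochrome c1, rose by 0.16 (adjusted p = 0.0489), with control replicate 1 (11.35) above FLAG-CTCFL replicate 1 (11.34). Uqcrb, which takes part in ubiquinone binding, fell from 12.75, 12.66 and 12.64 to 12.56, 12.48 and 12.56 (-0.15 ± 0.05, adjusted p = 0.0247), while its dimmer rows, at -0.13 and -0.057, did not pass. The core proteins Uqcrc1 (0.11) and Uqcrc2 (0.0070) and the Rieske iron-sulfur protein Uqcrfs1 (-0.096) did not pass. Without control replicate 2 or 3 the calls of Uqcrq (adjusted p = 0.146 and 0.159) and Uqcrh (0.201 and 0.209) were lost. Both were also lost without FLAG-CTCFL replicate 3 (0.0760 and 0.116), Uqcrq without FLAG-CTCFL replicate 1 (0.0795) and Uqcrh without FLAG-CTCFL replicate 2 (0.0886). The Uqcrb call was lost without FLAG-CTCFL replicate 2 (0.0601) and without control replicate 1 (0.128) or 2 (0.0555).

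Complex IV, cytochrome c oxidase, had 5 falls and 1 rise among 18 genes, and 4 of its falls were the largest of all OXPHOS genes. Ndufa4l2, a paralog of the Ndufa4 subunit that is induced in hypoxia, read 8.75, 8.61 and 8.71 in the control arrays and 8.09, 8.29 and 8.14 with CTCFL. It fell by 0.52 ± 0.06 on the log2 scale (SE, n = 3 arrays per group; limma adjusted p = 1.35e-05; 1.43-fold). Ndufa4 itself, at 0.092, did not pass. Cox6b2, the testis isoform of subunit 6b, read 10.18, 10.06 and 10.02 against 9.58, 9.78 and 9.69 and fell by 0.40 ± 0.06 (adjusted p = 0.000122). Its ubiquitous counterpart Cox6b1 fell too, from 11.95, 11.82 and 11.83 to 11.68, 11.59 and 11.61 (-0.24 ± 0.05, adjusted p = 0.00210). Cox7a1, the isoform of heart and skeletal muscle, read 9.46, 9.37 and 9.31 against 9.10, 9.09 and 9.05 (-0.30 ± 0.05, adjusted p = 0.000291), while Cox7a2, its counterpart in other tissues, gave 0.034 and did not pass. In Ndufa4l2, Cox6b2, Cox6b1 and Cox7a1 every FLAG-CTCFL array lay below every control array, and each passed under all 15 alternatives that kept the threshold.

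Cox7b, on chromosome X, read 13.47, 13.29 and 13.32 in the control arrays and 13.09, 12.90 and 13.09 with CTCFL, a fall of 0.33 ± 0.06 on the log2 scale (SE, n = 3 per group; limma adjusted p = 0.00104). A dimmer row for Cox7b fell by 0.44. Of its 20 nearest tested genes 10 were lower, with a median of -0.16, whereas the neighbours of Cox6b1, Cox6b2 and Cox7a1, all on chromosome 7, had medians of 0.0058, -0.0018 and 0.0039. Those of Ndufa4l2, on chromosome 10, had a median of -0.076, with 7 of 20 lower and 2 higher. The remaining ubiquitous subunits did not pass: Cox4i1 (-0.067), Cox5a (-0.051), Cox5b (0.045), Cox6a1 (-0.085), Cox6c (0.010) and Cox8a (-0.091). Cox4i1, the regulatory subunit that is joined early in assembly, read 11.40, 11.29 and 11.21 against 11.28, 11.21 and 11.21, with a 95% interval of the log2 difference from -0.18 to 0.047. The count of falls in complex IV was 4 to 6 over the alternatives.

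Of the 8 tissue-restricted isoforms and paralogs, all counted in complex IV, 3 fell (Ndufa4l2, Cox6b2 and Cox7a1) and 1 rose. Cox7b2, the testis isoform of subunit 7b, read 7.53, 7.62 and 7.57 in the control arrays and 7.83, 7.82 and 7.97 with CTCFL, a rise of 0.30 ± 0.05 on the log2 scale (SE, n = 3 per group; limma adjusted p = 0.000421). All its control arrays lay at or under the end of the background range (7.63), so the size of this rise is poorly known. Cox8c, also known from the testis, read 7.82, 7.79 and 7.90 against 7.84, 8.01 and 7.77 (adjusted p = 0.753). The muscle isoforms Cox6a2 and Cox8b read 7.91 to 7.97 and 7.63 to 7.75 in the control arrays and 7.91 to 8.06 and 7.62 to 7.80 with CTCFL. Cox4i2, the isoform of lung and of low oxygen, read 8.46, 8.52 and 8.49 against 8.51, 8.52 and 8.45, with a 95% interval of the log2 difference from -0.089 to 0.096. For these 4 isoforms the groups overlapped. The testis isoforms thus did not share a direction: Cox6b2 was lower, Cox7b2 higher and Cox8c did not pass. The summed male germ cell markers were lower beside them (12.65 to 12.69 against 12.40 to 12.54). Of these 7 markers Sycp3 fell (-1.21), Ddx4 rose (0.28) and 5 did not pass. The summed muscle markers were higher (10.57 to 10.59 against 10.70 to 10.73). Of these 6 markers Actn2 rose (0.58) and 5 did not pass. The part of these markers in the isoform values was not tested.

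**Figure D5:**
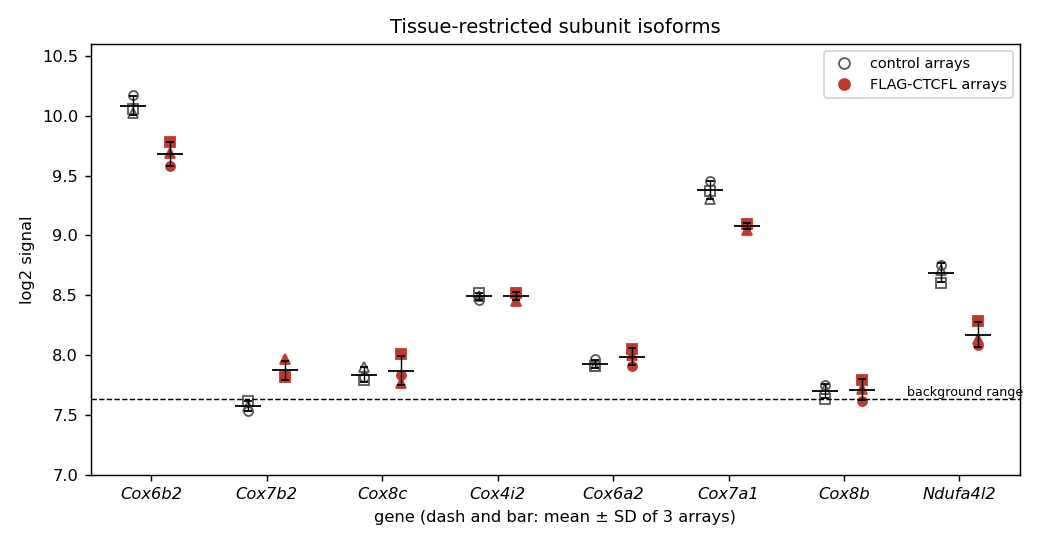
Log2 signal in each array (open symbols control, filled symbols FLAG-CTCFL; black dash and bar, mean ± SD of 3 arrays) for 8 tissue-restricted subunit isoforms and paralogs of complex IV. The dashed line at 7.63 is the end of the background range; the control arrays of Cox7b2 lie below it, and Cox6b2, Cox7a1 and Ndufa4l2 lie above it in both groups.

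In complex V, the ATP synthase, 4 of 17 genes rose (23.5%), 0 fell and 13 did not pass. Over all genes 12.5% were higher and 18.4% lower. The rises were in membrane and stalk subunits, to which most of the 17 genes belong. Atp5g1 codes for subunit c of the rotor ring, whose mature protein is also made from Atp5g2 and Atp5g3. It read 12.39, 12.31 and 12.29 in the control arrays and 12.69, 12.54 and 12.54 with CTCFL, a rise of 0.26 ± 0.05 on the log2 scale (SE, n = 3 arrays per group; limma adjusted p = 0.00152), and a dimmer row gave 0.27. Atp5g2 (-0.075) and Atp5g3 (-0.032) did not pass. Atp5k, subunit e of the membrane part, read 9.35, 9.21 and 9.30 against 9.40, 9.60 and 9.56 (0.23 ± 0.06, adjusted p = 0.00744), among neighbours on chromosome 5 of which 8 of 20 were lower. Atp5mpl, a small membrane protein of the complex, read 11.19, 10.99 and 11.00 against 11.26, 11.29 and 11.24 (0.20 ± 0.05, adjusted p = 0.0120). Atp5o, which joins the catalytic head to the stalk, read 11.23, 11.08 and 11.09 against 11.27, 11.33 and 11.35 (0.18 ± 0.05, adjusted p = 0.0155). In all 4 genes the arrays of the groups were apart. The calls of Atp5mpl and Atp5o were lost without control replicate 2 (adjusted p = 0.0716 and 0.0858) or 3 (0.0665 and 0.0757), and that of Atp5o without FLAG-CTCFL replicate 3 (0.0713). When each gene had its own variance only, the 4 rises became 0.

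The catalytic head of the ATP synthase showed no change that passed. Atp5b, its catalytic beta subunit, read 13.54, 13.55 and 13.54 in the control arrays and 13.68, 13.52 and 13.61 with CTCFL, and the 95% interval of the log2 difference was -0.047 to 0.16. Atp5a1, the alpha subunit, read 12.56, 12.60 and 12.54 against 12.57, 12.49 and 12.50, with an interval from -0.14 to 0.046. The gamma, delta and epsilon subunits of the central stalk, Atp5c1 (-0.0082), Atp5d (-0.037) and Atp5e (-0.10), did not pass.

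Of the 12 assembly and supercomplex factors 3 rose (25%) and 0 fell. Over the alternatives the rises ran from 1 to 4 and the falls from 0 to 2. All 3 rises were in factors of complex I, as are most of the 12, Ndufaf1 to Ndufaf7. Ndufaf1, which builds the membrane arm of complex I, read 9.60, 9.58 and 9.54 in the control arrays and 9.84, 9.76 and 9.90 with CTCFL, a rise of 0.26 ± 0.05 on the log2 scale (SE, n = 3 arrays per group; limma adjusted p = 0.000822). It rose among neighbours on chromosome 2 that were mostly lower, 11 of 20, with a median of -0.14. Ndufaf2 read 8.49, 8.29 and 8.27 against 8.54, 8.53 and 8.59 (0.20 ± 0.06, adjusted p = 0.0143). Ndufaf4 read 9.58, 9.47 and 9.53 against 9.75, 9.61 and 9.77 (0.19 ± 0.05, adjusted p = 0.0145). The groups did not overlap in these genes. The calls of Ndufaf2 and Ndufaf4 were lost without control replicate 2 (adjusted p = 0.0775 and 0.0813) or FLAG-CTCFL replicate 3 (0.0647 and 0.0790), and that of Ndufaf2 without control replicate 3 (0.0809). The other complex I factors Ndufaf3, Ndufaf5, Ndufaf6 and Ndufaf7, the complex II factors Sdhaf1 to Sdhaf4 and Cox7a2l, a supercomplex factor, lay between -0.15 and 0.11 and did not pass.

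The genes around each member were read by their median, without the same measure over all genes. Such a median can miss part of a block. For Ndufa4l2 and Ndufv3, with neighbour medians of -0.076 and -0.048, 7 of 20 neighbours were lower and 2 higher. The 20 nearest tested genes of a member (16 for 1 member) had a median log2 fold change within 0.1 of 0 for 88 of 93 members, among them 21 of the 22 that rose and 7 of the 9 that fell. Of the 8 members on chromosomes 6, 14 and X, which also hold the largest falls of the citric acid cycle genes described last, Ndufa1 rose and Cox7b fell, and of the 85 on other chromosomes 21 rose and 8 fell.

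Genes that build, feed or regulate the chain were read beside it. The shares to read these lists against are 12.5% higher and 18.4% lower over all genes, and 17.6% and 31% among the brightest 25% of genes. Of 32 measured assembly factors outside the name rule 8 rose and 6 fell (25% and 18.8%; 15 and 6 genes after quantile normalization), with a median of 0.066. Without control replicate 3 or FLAG-CTCFL replicate 3 the rises were 4 and 5, and without control replicate 1 or 2 the falls were 3 in each case, and without FLAG-CTCFL replicate 3 they were 4. Atpaf2, which assembles the ATP synthase head, rose by 0.49 ± 0.06 on the log2 scale (limma adjusted p = 2.19e-05), Lrpprc, which stabilises mitochondrial mRNA, by 0.37, and Surf1, a complex IV assembly factor, by 0.31. Cox18, which inserts a complex IV subunit into the membrane, fell by 0.28. Of 21 electron carriers and partners 5 rose and 7 fell (23.8% and 33.3%; 4 fell without control replicate 2), with a median of -0.042. Slc25a31, the germ cell ADP/ATP carrier, read 8.50, 8.56 and 8.59 in the control arrays and 9.69, 9.63 and 9.84 with CTCFL, a rise of 1.17 ± 0.05 (2.25-fold; adjusted p = 4.86e-09). Slc25a4, the ADP/ATP carrier of heart and muscle, read 11.93, 11.97 and 11.88 against 11.33, 11.30 and 11.24 and fell by 0.64 ± 0.04 (1.56-fold; adjusted p = 1.89e-07). Slc25a5, the carrier of proliferating cells, did not pass (-0.035). Coq5 of ubiquinone synthesis rose by 0.42, and the outer membrane channel Vdac1 fell by 0.34. Somatic cytochrome c, Cycs, rose by 0.26, and testis cytochrome c, Cyct, fell by 0.19.

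Regulators of respiratory genes and of mitochondrial DNA gave few calls. Of 17 genes 3 rose and 1 fell (17.6% and 5.88%; 0 and 1 genes after subtraction of array medians, 4 and 4 with array weights), with a median of -0.015. These calls lay near the threshold, with limma adjusted p from 0.0240 (Gabpb1) to 0.0441 (Twnk), and most did not hold with fewer arrays. The rises were 0 when any array but FLAG-CTCFL replicate 2 was left out, and the falls ran from 0 to 3. Gabpb1 (0.15), Yy1 (0.16) and the helicase Twnk (0.12) rose, and the mitochondrial rRNA methyltransferase Tfb1m fell by 0.15. Nrf1 (-0.015), Tfam, the packaging and transcription factor of mitochondrial DNA (0.011), and the coactivator Pprc1 (-0.047) did not pass, and Ppargc1a lay in the background range. Enzymes of the tricarboxylic acid cycle and pyruvate dehydrogenase gave 1 rise and 6 falls among 15 genes (6.67% and 40%; 4 falls without control replicate 2, and 0 rises without FLAG-CTCFL replicate 1 and without control replicate 1 or 3), with a median of -0.055. The largest falls were in the succinyl-CoA ligase subunits Sucla2 (-0.53, chromosome 14) and Suclg2 (-0.49, chromosome 6) and in Idh3g, of NAD-dependent isocitrate dehydrogenase (-0.40, chromosome X). Among their 20 nearest tested genes 10, 8 and 12 were lower, with medians of -0.16, -0.039 and -0.38. Suclg1, the shared subunit of both succinyl-CoA ligases, rose by 0.18. None of the 13 subunits encoded in mitochondrial DNA was matched by name, and they were not analysed here.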

How the data were processed

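The deposited table of the authors holds 1 log2 signal per probe set and array for 34760 probe sets; that the values are log2 was read from their range. How the authors corrected background, summarised and scaled is not given in the sources used here, and the number of arrays limits the precision. The platform annotation gave 1 symbol to 21640 rows and several to 1321, the latter including Cox7c and Ndufb4, which were not analysed here. Names were updated by Entrez ID (GRCm38.p6 gene table; 21553 matched, 87 kept the annotated name). The brightest row per gene left 19937 genes, all tested, without a filter on dim genes.

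The test was limma's (version 3.58.1, R 4.3.3; lmFit and eBayes, two-sided), fitted over all genes with no term beside the group. The procedure was tested on simulated data. Figures used Python 3.11.15 and matplotlib 3.10.9. Members and lists were chosen with earlier results of these data known. Array values are given for members past the threshold with groups that do not overlap, up to 4 per complex and direction by smallest p, and for the tissue isoforms; of each list, up to 4 genes past the threshold by smallest p are named. Cox6b1, Uqcrh, Ndufs1, Cox4i1, Atp5a1, Atp5b, Cycs, Cyct, Slc25a5, Nrf1, Tfam, Pprc1, Ppargc1a and Suclg1 were chosen to be named with values known. As alternatives the test was run with a replicate block, on quantile-normalized or median-centred arrays, without the dimmest 25% or 50% of genes, on the mean of a gene's rows, with a robust variance trend, with weights for arrays, without moderation of the variance, at stricter thresholds, and with each array left out in turn; their use on the 4 pathway lists was added after the data were seen.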

Additional observations from a re-analysis of the deposited data

How the results depend on the processing

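Of the 31 members that passed, 9 passed under each of the 15 alternatives that kept the thresholds: Ndufa10, Ndufs8, Ndufaf1 and Cox7b2 among the rises (Cox7b2 was not fitted when the dimmer 50% of genes were left out) and Ndufv3, Ndufa4l2, Cox6b1, Cox6b2 and Cox7a1 among the falls. Of the 62 others, 17 passed under at least 1 of them, and no call changed direction. The 22 rises became 11 with array medians subtracted, 5 when each gene had its own variance only, 9 at an adjusted p of 0.01 and 2 at a minimum change of 1.2-fold, and 9 to 21 with 1 array left out. Over all genes the 2496 rises became 1785, 1458, 1668 and 987 under the first 4 of these, and 1905 to 2818 with 1 array left out. The 9 falls became 16 with array weights and 5 at a minimum of 1.2-fold, and 7 to 9 with 1 array left out, while the 3665 falls over all genes became 5009, 2049 and 3045 to 3880. The median over the members, 0.010, was 0.043 after quantile normalization (all genes -0.0016), -0.015 after subtraction of array medians (all genes -0.021) and -0.0020 to 0.037 with 1 array left out, and Ctcfl passed throughout. With the replicate number as a block 19 members were higher and 9 lower. Over all genes the deviations of same-numbered arrays correlated at 0.13, -0.20 and -0.021, and no same-numbered arrays were each other's best match. This was not tested over the members alone, for which replicate 1 was most often the highest array in both groups (82.8% in control and 53.8% in FLAG-CTCFL). Signal near the background range limits Cox7b2 and Cox8b, and differences of about 0.1 on the log2 scale lie near the limit of 3 arrays per group.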
